A study of Mus musculus with 6 samples.

Results

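The IGHV5 family is the group of mouse immunoglobulin heavy chain variable genes that lies close to the D and J segments at the 3′ end of the variable region. It was followed here in spleen B cells of 2 mice, by taking every heavy chain whose V gene name starts with IGHV5-. Of 8295 B cells with a productive heavy chain, 491 used an IGHV5 gene, 333 of 4824 in the wild-type mouse and 158 of 3471 in the knock-in mouse. These cells used 9 of the 99 variable genes seen. Of the 10 functional and 11 pseudogene IGHV5 segments in RefSeq's annotation of GRCm38.p6, 9 functional segments and 0 pseudogenes were seen in any cell, and Ighv5-12-4 was the functional one that was not.

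A heavy chain gene is assembled in 2 steps: a D segment is joined to a J segment, and a V segment is then joined to the D segment. The junction, CDR3, is the most variable part of the antigen-binding site. The member nearest to the D segments, IGHV5-2 (81X), is known for its frequent use in the first B cells of fetal life and for often giving chains that pair poorly. In mice that carry an already assembled autoreactive heavy chain at the heavy chain locus, an upstream V segment can still be joined into the inserted chain, and chains from the other allele can be used as well.

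The study sequenced antigen receptors of single spleen cells with 10x 5′ V(D)J libraries, after red cells had been depleted with Ter-119. The wild-type (WT) mouse was C57BL/6JRj. The other mouse, of the strain B6.129S4(Cg), was heterozygous for 564Igi, the alleles Igktm1(Igk564)Tik and Ightm1(Igh564)Tik, in which a rearranged autoreactive heavy chain and a rearranged light chain sit in the heavy chain and kappa loci. The labels give neither age nor sex. With 1 mouse per group, a difference between mice has no replicate check, genotype and mouse cannot be told apart, and no test between them was run. Shares are given with exact Clopper-Pearson 95% intervals and differences of shares with Newcombe 95% intervals, all of which cover counting error only.

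The B cell tables held 927382 unique molecular identifiers (UMIs, each marking 1 captured RNA molecule) in WT and 747499 in 564Igi, with 6858 and 4200 called cells. Of these, 345 and 373 barcodes were called as T cells too and were left out. Between the mice, 38 called B cell barcodes were shared, but IGHV5 cells shared 0 barcodes and 0 CDR3 nucleotide sequences. Among barcodes called only as T cells, 3 of 3263 in WT and 771 of 4573 in 564Igi held a productive heavy chain, and 0 of each held an IGHV5 chain, which allows shares of up to 0.0919% and 0.0656%.

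No label gives the sequence of the knock-in heavy chain. The most frequent heavy CDR3 of the 564Igi mouse, IGHV1-53 with IGHJ4 and the residues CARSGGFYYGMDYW, was taken as its candidate and was carried by 1830 of 3471 cells. Its last 10 residues, GGFYYGMDYW, are called the knock-in end below. Cells of 564Igi other than those with the exact candidate CDR3 were split into 700 whose CDR3 had that end and 941 whose CDR3 did not. In WT, 0 of 4824 cells carried the end, which allows a share of up to 0.0622%.

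The CDR3s below show what separates the kinds of chain, with the bases in capitals marking the unbroken run shared with the candidate, counted from its 3′ end. The candidate is followed by the end-bearing chain with the most UMIs for each of the 3 IGHV5 genes with most such cells, then by IGHV5-17 chains that lack the end.
Candidate, IGHV1-53: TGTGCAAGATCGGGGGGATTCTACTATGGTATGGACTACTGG
IGHV5-17, 564Igi, with the end: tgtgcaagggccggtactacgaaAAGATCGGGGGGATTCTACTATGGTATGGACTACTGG
IGHV5-6, 564Igi, with the end: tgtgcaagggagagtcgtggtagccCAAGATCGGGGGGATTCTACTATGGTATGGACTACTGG
IGHV5-9-1, 564Igi, with the end: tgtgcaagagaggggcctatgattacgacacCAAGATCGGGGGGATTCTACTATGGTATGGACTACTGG
IGHV5-17, 564Igi, without the end: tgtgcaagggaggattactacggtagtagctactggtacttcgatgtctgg
IGHV5-17, WT: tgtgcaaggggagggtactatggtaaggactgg
The end-bearing chains shared 37, 38 and 38 of the candidate's 42 bases, and 23, 25 and 31 further bases stood before that run. They had 41, 35 and 46 UMIs. The IGHV5-17 chain without the end used IGHJ1 and had 3890 UMIs, and the WT chain used IGHJ2 and had 56.

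IGHV5 genes made up 6.90% of heavy chains in WT (6.20 to 7.66%). In 564Igi they made up 8.18% of chains without the end (77 of 941, 6.51 to 10.1%) and 11.3% of chains with it (79 of 700, 9.04 to 13.9%). Chains without the end exceeded WT by 1.28 points, with an interval from -0.553 to 3.34 that includes 0. Chains with the end exceeded WT by 4.38 points (2.01 to 7.06) and chains without it by 3.10 points (0.134 to 6.18). The last interval comes close to 0 and included it under 4 other settings, given with their values in the closing section.

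The share of IGHV2 and that of IGHV1 differed from WT by more points. IGHV2, the D-proximal family interspersed with IGHV5, was 5.62% of WT chains, 8.50% of 564Igi chains without the end and 14.9% of those with it. IGHV3 was 4.52%, 4.14% and 8.0%, in the same order. IGHV1, the largest family, was 58.5%, 51.6% and 41.0%. The IGHV5 family's log2 ratio to WT was 0.25 without the end and 0.72 with it, and the nearest of 65 genes in this pair of ratios was IGHV1-52 (0.27 and 0.70; 61 WT cells and 14 of each 564Igi kind). IGHV3-8 (17, 4 and 4 cells) and IGHV9-3 (213, 48 and 44 cells) came next.

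Of the 7 IGHV5 genes with at least 20 cells over the groups compared, 2 were at least 2-fold higher in chains without the end than in WT (IGHV5-9 and IGHV5-12) and 1 was at least 2-fold lower (IGHV5-16). Of all 66 genes compared, 12.1% passed in each direction. Between chains with the end and WT, 3 of 6 IGHV5 genes were higher (IGHV5-6, IGHV5-9 and IGHV5-9-1), against 23.5% of 68 genes, and 1 was lower (IGHV5-16, with 0 cells and only at a limit of 3 cells), against 32.4%. Between chains with and without the end, 2 of 3 were higher (IGHV5-6 and IGHV5-9-1), against 32.3% of 31 genes, and 0 were lower, against 19.4%. The median fold of the IGHV5 genes in these comparisons was 1.29, 2.26 and 2.5, beside 1.06, 0.835 and 1.06 over all genes compared. In the last comparison, IGHV5-6 (19 and 6 cells) and IGHV5-9-1 (13 and 7) reached the minimum of 20 cells mostly through end-bearing cells. Among those that fell short were IGHV5-4 (7 and 12, 0.784-fold), IGHV5-12 (6 and 10, 0.807-fold) and IGHV5-9 (11 and 7, 2.11-fold). Against WT, IGHV5-9 (13 WT cells) and, without the end, IGHV5-12 (12) reached it only with their 564Igi cells. IGHV5-16, the gene called lower, reached it through its 46 WT cells, with 4 cells without the end and 0 with it. The counts and median folds thus depend on this minimum. With so few members per comparison, these counts are a description and give no measure of how unusual the family is.

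**Figure D1:**
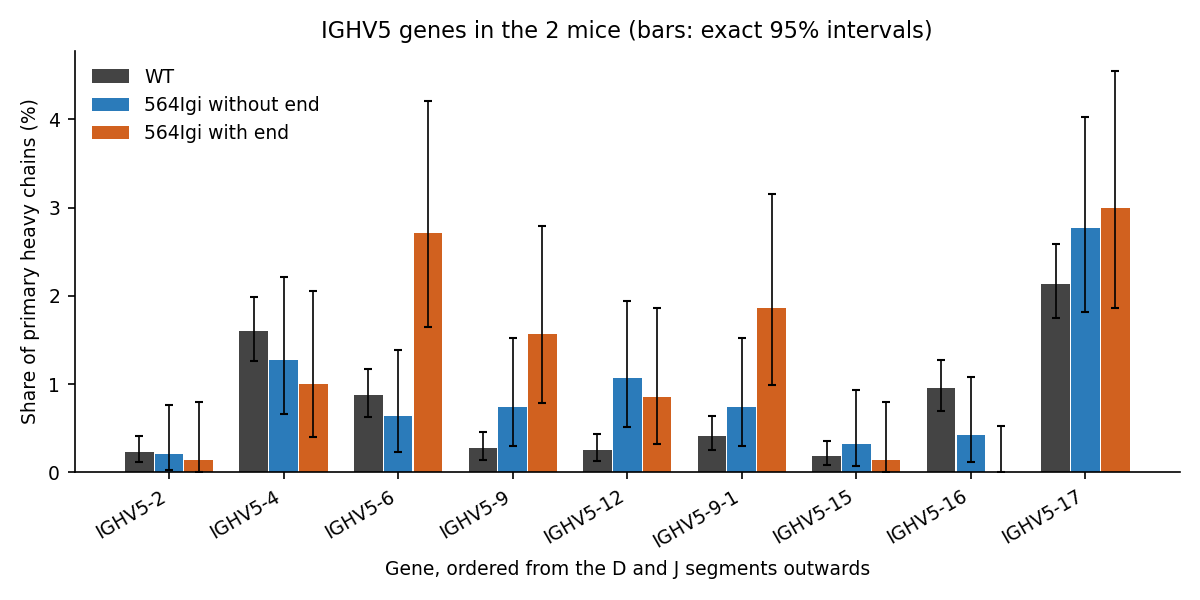
Share of each IGHV5 gene among primary heavy chains (percent, from 0) in WT, 564Igi without the knock-in end and 564Igi with it, with genes ordered outwards from the D and J segments and lines giving exact 95% intervals. IGHV5-6 stands at 2.71% with the end beside 0.871% in WT, and IGHV5-16 has no bar with the end.

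The genes are described in their order along mouse chromosome 12 (GRCm38.p6), starting near the D and J segments. Gene names are those of the deposited annotation and were not checked against V gene sequences of either strain. Shares and positions of single genes rest on these names. IGHV5-2 (12, 113578504 to 113578990) is 148.7 kb from Ighj1. It was used by 11 cells in WT, 2 in 564Igi without the end and 1 with it.

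IGHV5-4 (113597448 to 113597741) was the second most used member in WT, with 77 cells or 1.60% of chains (1.26 to 1.99%). In 564Igi it had 12 cells without the end (1.28%) and 7 with it (1.0%). Neither value differed from WT beyond counting error, and the differences were -0.321 points (-1.05 to 0.678) and -0.596 points (-1.31 to 0.505). Its CDR3s most often began with tgtgcaagag, in 88 of 96 cells.

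IGHV5-6 (113625508 to 113625801) took 42 WT cells (0.871%, 0.628 to 1.18%), 6 cells without the end (0.638%, 0.234 to 1.38%) and 19 with it (2.71%, 1.64 to 4.21%). Its share with the end was 3.12-fold that in WT, a difference of 1.84 points (0.729 to 3.36). It was 4.26-fold that without the end, a difference of 2.08 points (0.771 to 3.62). Thus 19 of its 25 cells in 564Igi carried the end, or 76.0% (54.9 to 90.6%).

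IGHV5-9 (113661771 to 113662228) was rare in WT, with 13 cells (0.269%, 0.144 to 0.460%). It had 7 cells without the end (0.744%) and 11 with it (1.57%, 0.787 to 2.79%), and 11 of its 18 cells in 564Igi carried the end. The share with the end was 5.83-fold that in WT (1.30 points, 0.495 to 2.53). The share without the end was 2.76-fold that in WT, but this difference of 0.474 points had an interval from -0.00917 to 1.27.

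IGHV5-12 (113702126 to 113702419) had 12 WT cells (0.249%, 0.129 to 0.434%), 10 cells without the end (1.06%, 0.511 to 1.95%) and 6 with it (0.857%, 0.315 to 1.86%). Its share without the end was 4.27-fold that in WT (0.814 points, 0.232 to 1.71). Among the IGHV5 genes compared, it was the only one whose interval lay above 0 in that comparison. Its share with the end differed from WT by 0.608 points (0.0356 to 1.61), on 18 cells in all, under the minimum for the 2-fold comparison. At a minimum of 5 UMIs this interval included 0.

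IGHV5-9-1 (113736113 to 113736406) lies further out than its name would place it, beyond IGHV5-12. It had 20 WT cells (0.415%, 0.253 to 0.640%), 7 without the end (0.744%, 0.300 to 1.53%) and 13 with it (1.86%, 0.992 to 3.15%). The share with the end was 4.48-fold that in WT (1.44 points, 0.549 to 2.75). It was 2.5-fold that without the end, where the interval of the difference, -0.0531 to 2.48 points, includes 0 but excluded it under 3 alternatives. Its CDR3s began with the residues CTR in 19 of 20 WT cells and 6 of 7 cells without the end, but in 1 of 13 with it, where 9 of 13 began with CAR. The other members had 0 cells that began with CTR. The commonest start also differed between WT and end-bearing chains in 2 other members. In IGHV5-6 it was tgtgcaagac in WT (34 of 42) and tgtgcaagag with the end (7 of 19). In IGHV5-17 it was tgtgcaaggg in WT (35 of 103) and tgtgcaagag with the end (7 of 21). It was the same in both groups for IGHV5-4, IGHV5-9 and IGHV5-12. Why the starts differed was not tested.

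IGHV5-15 (113826648 to 113826941) had 9, 3 and 1 cells. IGHV5-16 (113838528 to 113838821) had 46 WT cells (0.954%, 0.699 to 1.27%), 4 without the end (0.425%, 0.116 to 1.08%) and 0 of 700 with it, which allows a share of up to 0.429%. At that limit of 3 cells the ratio to WT is at most 0.449, and at the exact upper limit of 0.526% it is at most 0.551, so a 2-fold difference depends on which limit is used. The difference was -0.954 points (-1.27 to -0.370). The interval for chains without the end, -0.971 to 0.179 points, includes 0.

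IGHV5-17 (113859149 to 113859442), 429.3 kb from Ighj1, was the most used member in each group. It had 103 WT cells (2.14%, 1.75 to 2.58%), 26 without the end (2.76%, 1.81 to 4.02%) and 21 with it (3.0%, 1.87 to 4.55%). Neither 564Igi value differed from WT beyond counting error (0.628 points, -0.423 to 1.95, and 0.865 points, -0.354 to 2.46). A further 2 cells carried the exact candidate CDR3 on a contig named IGHV5-17. Both contigs were 706 bases long, beside a median of 683 for contigs named IGHV1-53, had 11 and 19 UMIs, were the only heavy chain of their cell and were paired with the candidate light chain. They were kept apart from both kinds of 564Igi chain.

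End-bearing IGHV5 chains had long CDR3s. The median was 20 residues (15 to 26), beside 14 without the end (8 to 20) and 14 in WT (8 to 22). Other families had the same medians, 20, 14 and 14 residues. The rule that picks these chains fixes their last 10 residues, so their length and their J gene, IGHJ4 in 79 of 79 cells, are given as a description. In WT the IGHV5 chains used IGHJ1 in 21.6%, IGHJ2 in 31.5%, IGHJ3 in 20.1% and IGHJ4 in 26.7% of cells. Without the end they used them in 11.7%, 36.4%, 20.8% and 31.2%.

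**Figure D2:**
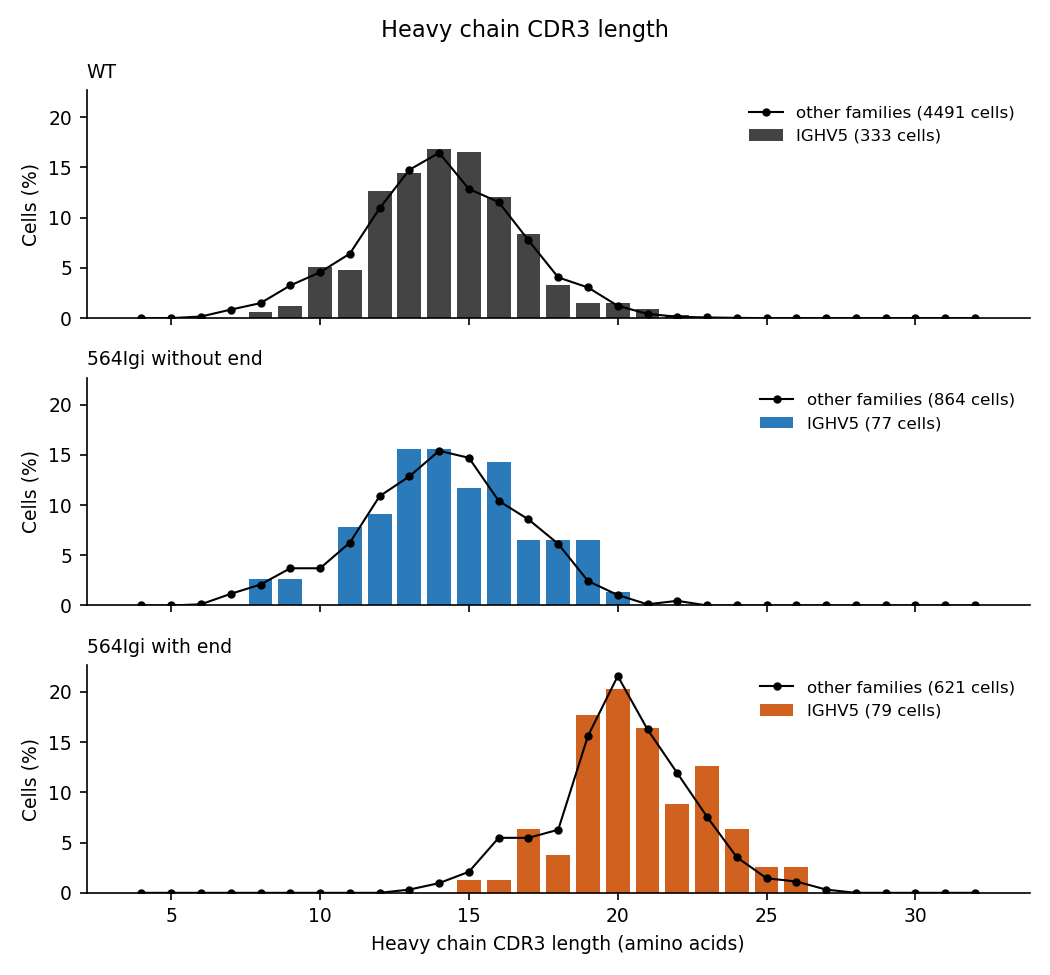
Heavy chain CDR3 length in amino acids (horizontal) against the percent of cells (vertical) in WT, 564Igi without the end and 564Igi with it, with IGHV5 cells as bars and other families as black points joined by lines. The bars for end-bearing chains centre on 20 residues and the other panels on 14, and in each panel the bars follow the line.

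The shared run is longer than the end requires. Among 79 end-bearing IGHV5 cells its median was 37 of 42 bases (32 to 40), and 25 bases (12 to 42) stood before it. A run of 36 bases or more, a limit chosen after the values were seen, was found in 57 of 79 IGHV5 cells (72.2%, 60.9 to 81.7%) and 350 of 621 cells of other families (56.4%, 52.4 to 60.3%), a difference of 15.8 points (3.89 to 26.1). At 34 bases or more the shares were 88.6% and 83.1%, and the interval of that difference, -4.06 to 12.4 points, includes 0. By gene, 18 of 21 IGHV5-17 cells, 14 of 19 IGHV5-6 cells, 9 of 13 IGHV5-9-1 cells and 7 of 11 IGHV5-9 cells reached 36 bases. Among the 77 IGHV5 chains without the end the longest run was 29 bases; 30 or more would encode the end, which the split itself leaves out.

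The range of these junctions is shown by 3 chains chosen after their values were seen, with capitals as above: the longest run, the shortest CDR3 and the longest CDR3.
IGHV5-6, longest run: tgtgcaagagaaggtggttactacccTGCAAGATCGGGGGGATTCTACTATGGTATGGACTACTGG
IGHV5-6, shortest CDR3: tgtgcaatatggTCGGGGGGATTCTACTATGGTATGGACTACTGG
IGHV5-12, longest CDR3: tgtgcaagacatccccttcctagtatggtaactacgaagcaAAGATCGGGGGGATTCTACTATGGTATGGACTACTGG
The runs were 40, 33 and 37 bases long, and 26, 12 and 41 bases stood before them.

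**Figure D3:**
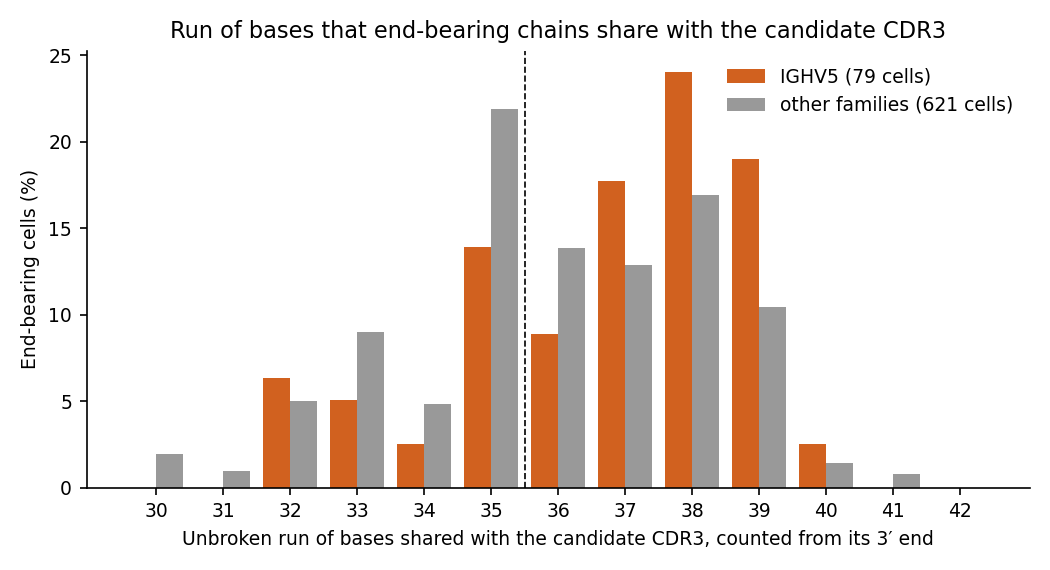
Length in bases of the unbroken run shared with the candidate CDR3, from its 3′ end (horizontal), against the percent of end-bearing cells (vertical), for IGHV5 and other families. The dashed line marks the limit of 36 bases, and 72.2% of IGHV5 cells lie to its right, beside 56.4% of the others.

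The D gene named for end-bearing IGHV5 chains belonged to the IGHD2 group in 54 of 79 cells (68.4%, 56.9 to 78.4%), beside 44.2% without the end and 39.9% in WT. The excess over WT was 28.4 points (15.7 to 39.7), and it was 26.5 points (22.3 to 30.5) in other families. IGHD2-4 alone was named in 29.1% of end-bearing IGHV5 cells and 17.1% of other end-bearing cells, a difference of 12 points (1.85 to 23.7). IGHD1-1 was named in 15.2% with the end, 35.1% without it and 34.8% in WT. IGHD3-1 was named in 16.5%, in 0 of 77 (which allows up to 3.9%) and in 2.40%. On both IGHV5-17 contigs with the exact candidate CDR3 the D gene was also named IGHD3-1, so the name of the D gene is not independent of the shared bases.

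The net charge of a CDR3 was taken as its lysines and arginines minus its aspartates and glutamates. It was 1 or more in 22.8% of WT IGHV5 cells (18.4 to 27.7%), 40.3% of those without the end (29.2 to 52.1%) and 39.2% of those with it (28.4 to 50.9%). The share without the end exceeded WT by 17.4 points (5.38 to 30.03) and the other families of the same kind by 13.4 points (1.96 to 25.6). Other families stood at 24.2%, 26.9% and 39.9%. Among chains without the end, 15 of 26 IGHV5-17 cells and 6 of 7 IGHV5-9 cells had such a charge, beside 33 of 103 and 3 of 13 in WT. The counts were 3 of 7 beside 3 of 20 for IGHV5-9-1 and 3 of 10 beside 3 of 12 for IGHV5-12. The share was no higher than in WT for IGHV5-4 (2 of 12 beside 17 of 77), IGHV5-6 (1 of 6 beside 7 of 42) and IGHV5-16 (0 of 4 beside 5 of 46). Without IGHV5-17 and IGHV5-9, a choice made after the values were seen, the shares were 10 of 44 (22.7%) and 40 of 217 in WT (18.4%). With the end, 13 of 21 IGHV5-17 cells but 1 of 13 IGHV5-9-1 cells did.

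Nearly all IGHV5 cells carried unswitched constant genes. Cells named IGHM were 75.8% in WT, 86.8% without the end and 83.8% with it. The delta constant gene, IGHD, was named in 23.9% (73 of 306), 11.8% (9 of 76) and 14.9% (11 of 74). Chains without the end fell by 12 points from WT (an interval from -20.2 to -1.47), and other families went from 21.3% to 13% between the same groups. With the end the difference from WT was -8.99 points (-17.9 to 2.20), an interval that includes 0. It was -10.8 points (-19.1 to -0.329) with barcodes called in both tables kept. Other families with the end stood at 9.70%. In each group 1 IGHV5 cell had a switched constant gene. The WT cell was IGHV5-4 with IGHG2C and 4871 heavy chain UMIs, the cell without the end was IGHV5-17 with IGHA and 6 UMIs, and the cell with the end was IGHV5-9-1 with IGHG2B and 4 UMIs.

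Light chain partners differed between the mice. The most frequent light CDR3 of 564Igi, IGKV4-59 with IGKJ5, was taken as the candidate light chain. It was the main light chain in 63 of 77 IGHV5 cells without the end (81.8%, 71.4 to 89.7%), in 61 of 77 paired cells with it (79.2%, 68.5 to 87.6%) and in 0 of 333 in WT, which allows up to 0.901%. WT IGHV5 cells used 69 light chain V genes, and 9.61% had a lambda chain. Other families carried the candidate light chain in 78.9% of cells without the end and 90.0% of cells with it, so end-bearing IGHV5 cells were lower by 10.8 points (an interval of the difference from -21.8 to -1.96). Counting only cells with exactly 1 productive light chain, an alternative chosen after the data were seen, the difference was -6.26 points (-16.1 to 0.104). By gene, all 20 paired IGHV5-17 cells with the end had it, beside 14 of 19 for IGHV5-6, 9 of 13 for IGHV5-9-1 and 7 of 11 for IGHV5-9.

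For each group 30 such features of IGHV5 chains were set beside other families, and the interval of the difference excluded 0 for 1 in WT, 2 without the end and 5 with it. These are unadjusted intervals, many of the features overlap, and some exclusions are to be reckoned with at 95%. With the end, the J gene features were set by the rule and could not exclude 0. In WT the candidate light chain was found in 0 cells of either set. The single one in WT was IGHJ1, in 21.6% of IGHV5 cells and 16.7% of the others (4.90 points, 0.453 to 9.83).

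**Figure D4:**
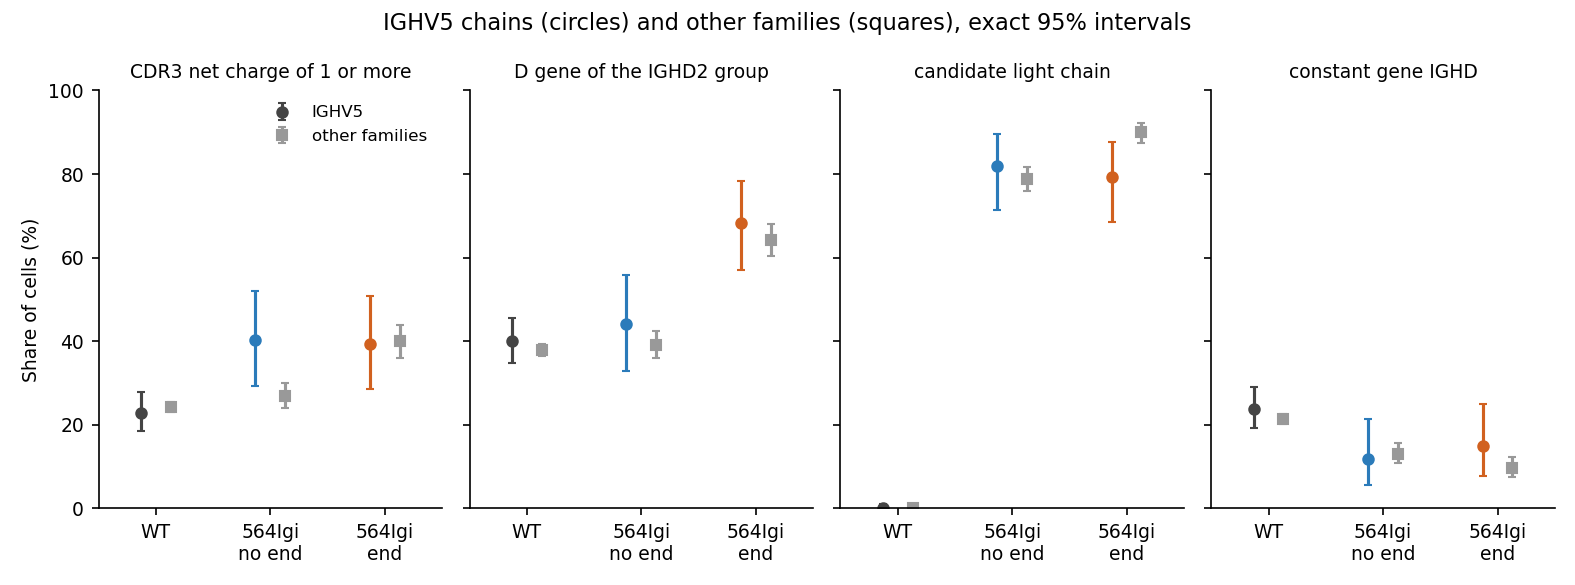
Percent of cells with a CDR3 net charge of 1 or more, a D gene of the IGHD2 group, the candidate light chain, or the constant gene IGHD, for IGHV5 (circles) and other families (grey squares) in WT and both kinds of 564Igi chain, with exact 95% intervals. Charge without the end stands at 40.3% for IGHV5 and 26.9% for the others. With the end, charge is partly set by the residues of the end itself.

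Heavy chain RNA per cell was similar across the groups. The median was 17 UMIs in WT (2 to 4871), 18 without the end (4 to 3890) and 18 with it (4 to 55), beside 14, 15 and 17 in other families. IGHV5-16 was low, with a WT median of 8.5 UMIs (3 to 1000), while the other members' WT medians ran from 13 to 21. Its cells were named IGHD in 15 of 41 WT cells (36.6%, 22.1 to 53.1%), an interval that overlaps those of IGHV5-9-1 (6 of 19, 31.6%), IGHV5-12 (3 of 10) and IGHV5-17 (18 of 97, 18.6%, 11.4 to 27.7%). At least 300 UMIs were found in 5 cells, 3 in WT (IGHV5-4, IGHV5-6 and IGHV5-16) and 2 without the end (IGHV5-17 and IGHV5-16). The median of the paired light chain was 45 UMIs in WT, 22 without the end and 18 with it, beside 47, 20 and 17 in other families. Light chain medians were thus lower in 564Igi in IGHV5 and other families alike. The part of this depth in the light chain results was not tested.

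**Figure D5:**
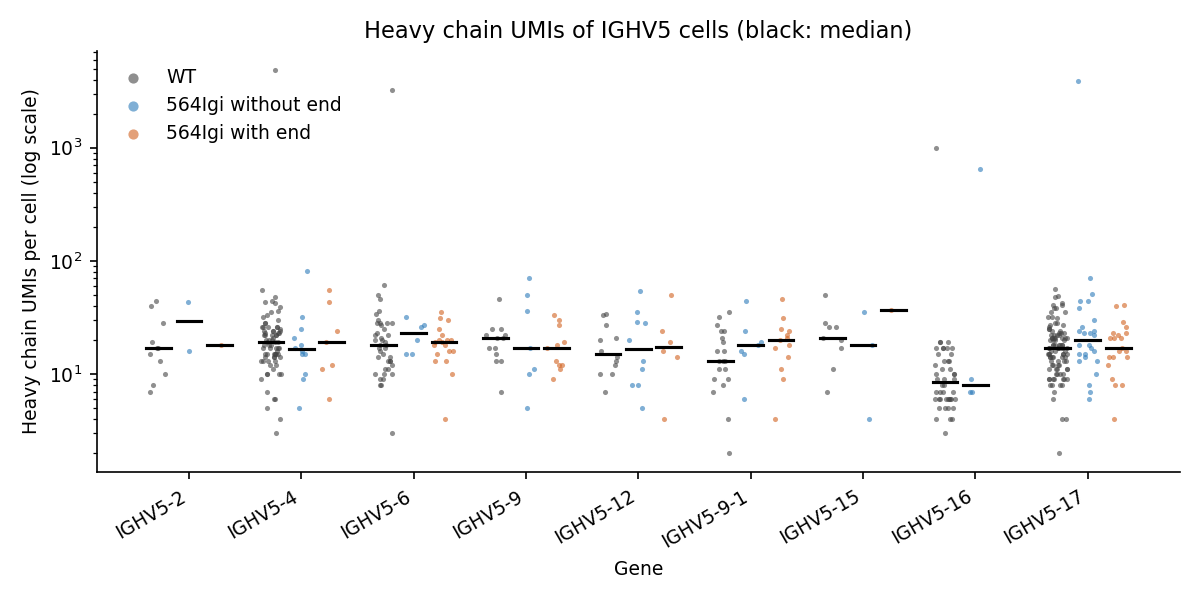
Heavy chain UMIs per IGHV5 cell (log scale) by gene and group, 1 point per cell, with black bars at the medians. IGHV5-16 lies lowest in WT at a median of 8.5, and 5 cells lie at 300 or more.

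Few IGHV5 contigs were nonproductive. They numbered 2 of 360 in WT (0.556%, 0.0674 to 1.99%) and 1 of 166 in 564Igi (0.602%, 0.0153 to 3.31%), beside 1.0% and 0.638% in other families. The WT contigs were of IGHV5-2 and IGHV5-17 and the 564Igi contig was of IGHV5-6. Contigs with no call of productivity, nearly all of them not full length, were 62 of 422 in WT (14.7%) and 14 of 180 in 564Igi (7.78%), beside 10.8% and 3.36% in other families.

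Of the cells whose main chain was IGHV5, 31 of 333 in WT and 11 of 158 in 564Igi held a second productive heavy chain. These were 9.31% in WT, 5.19% without the end and 8.86% with it, beside 7.10%, 5.09% and 5.96% in other families. Droplets that held 2 B cells were not called or removed, so they cannot be told apart from cells with 2 chains. Heavy chain RNA from outside the cell cannot be told apart either. Barcodes called only as T cells held a productive heavy chain, at any UMI count, in 771 of 4573 cases in 564Igi and 3 of 3263 in WT. In 5 of the 564Igi cells the second chain was the candidate, and their main chain had the end in 2 and lacked it in 3. Chains were otherwise almost all distinct, with 332 sequences in 333 WT cells, 76 in 77 cells without the end and 78 in 79 with it. The shared ones were each found in 2 cells, of IGHV5-17 in WT, IGHV5-9 without the end and IGHV5-4 with it.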

How the data were processed

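Contig annotation tables of B and T cell receptors from 1 WT and 1 564Igi spleen were used, with UMI and read counts and contig lengths as deposited by the authors. Cell Ranger 3.0.2 and mm10 are named in the submitters' processing notes; how cells were called is not stated in the sources used, and gene expression was not analysed here. Contigs were kept if high confidence, with at least 2 UMIs, in barcodes called as B cells but not also as T cells of that mouse. The productive heavy chain with most UMIs was the primary chain. Genes were compared from 20 cells, at 2-fold. A limit for 0 used 3 cells, and 0.5 cells were added in log2 ratios. Intervals were computed with SciPy 1.17.1 and pandas 2.3.3 in Python 3.11.15, and the comparison was tested on simulated data. Gene positions are RefSeq's for GRCm38.p6. Every IGHV5 gene is reported, those with at least 20 cells one by one; families IGHV1 to IGHV3 and the 3 nearest genes serve for comparison. The members and lists were chosen with earlier results of these data known. Further chains of a cell were counted as contigs. Alternatives are in the closing section.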

Additional observations from a re-analysis of the deposited data

Results flagged for a closer look

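IGHV5 contigs that had been left out of the measurements also carried the knock-in end. In 564Igi, 48 such contigs had a CDR3, and 14 of them had the end (29.2%, exact interval 17.0 to 44.1%), spread over 7 genes. In WT 0 of 62 did, which allows up to 4.84%. Of the 14, 13 lay in called B cell barcodes, and 8 of the 14 lay in barcodes called as T cells. By productivity 9 were productive, 1 nonproductive and 4 without a call, with 2 to 26 UMIs. The nonproductive one was an IGHV5-4 chain with 3 UMIs and a shared run of 35 bases, in capitals:
IGHV5-4, nonproductive: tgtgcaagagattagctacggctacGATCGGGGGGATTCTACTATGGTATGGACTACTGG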

How the results depend on the processing

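No paired analysis was possible because each group is 1 mouse. The family's shares and differences kept their direction under every alternative run, and 1 family value moved: the nonproductive share in 564Igi was 0 at a minimum of 5 UMIs. The difference between chains with and without the end had an interval that included 0 at a minimum of 5 UMIs (2.75 points), in cells with 1 heavy chain (2.80), with an end of 30 bases (2.87) and in cells with 1 light chain (1.79). Of the IGHV5-9 difference between chains without the end and WT, the interval excluded 0 under 5 alternatives. That of IGHV5-9-1 with minus without the end excluded 0 with barcodes called in both tables kept (1.15 points), an end of 8 residues (1.27) and an end of 30 bases (1.23). That of IGHV5-12 with the end minus WT included 0 at a minimum of 5 UMIs (0.488 points, -0.0524 to 1.49). The share of cells with a second productive light chain depended on the counting. It was 11.9 points lower in IGHV5 cells without the end than in WT (a difference of -11.9), and reversed to 5.75 points higher, with an interval that includes 0, when contigs below high confidence were admitted. In cells with 1 heavy chain it was -7.15 points (-12.4 to 0.999). For IGHV5 cells with the end minus WT it was -5.43 points, and 16.1 points (4.18 to 28.7) with contigs below high confidence admitted. After this reversal was seen, further chains were also counted by distinct CDR3, which gave -11.9 points, and -11.4 points with contigs below high confidence admitted. The light chain and distinct CDR3 alternatives were chosen after seeing the data. Of the values for single genes and chain features, 11 moved and 1 reversed; 10 of these concern second light chains, 1 the candidate light chain and 1 IGHV5-2 with the end. Counts of 1 to 20 cells limit what single genes can show.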
